A study of Mus musculus with 13 samples.

Results

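The immunoglobulin heavy chain variable (Ighv) segments were examined in whole tumour-draining lymph nodes (tdLN) of mice that carried tumours of B16F10, a melanoma cell line of the mouse, grown intradermally. Members were the rows of the node count table whose Ensembl identifier maps in the GENCODE M21 annotation to a symbol starting with Ighv. Their gene type had to be IG_V_gene, that of variable segments not annotated as pseudogenes. Whether each can give a working chain was not tested. This gave 113 segments of the 49315 gene identifiers in the table, all on chromosome 12 of GRCm38, between 113578504 and 116000461 on the minus strand. The quantity followed is the share of each segment in the summed Ighv counts of a library. The bulk RNA sequencing covered 3 Foxp3ΔJag1 nodes and 3 Foxp3Ctrl nodes, each from one mouse by the library names. Foxp3ΔJag1 mice carried a tamoxifen-inducible Cre (Foxp3eGFP-Cre-ERT2), which acts in Foxp3-expressing cells, chiefly regulatory T cells, together with Jag1fl/fl, the floxed gene of the Notch ligand Jagged-1. Foxp3Ctrl mice are given as WT in one label and as Jag1 fl/wt with the same Cre in the design text, so the labels do not settle whether the controls carried 1 floxed copy of Jag1. All mice were female, were aged 6 to 8 weeks when given tamoxifen (5 doses of 0.1 mg per g), and were injected with 200000 tumour cells at 6 to 11 weeks, after 9 days without tamoxifen. Whole nodes were sequenced, so the segments were read over all cells of the node.

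A heavy chain gene is assembled in each developing B cell by joining one V segment to a D and a J segment, and the joined exon is then transcribed with a constant region gene. Each B cell clone therefore uses a single productive V segment, and its antibody-secreting plasma cells carry far more immunoglobulin mRNA than resting B cells do. In a whole node, a V segment can take a large part of the Ighv reads because many B cells use it or because a few plasma cells that use it are rich in its mRNA. In bulk tissue, fewer cells of a type and less RNA per cell cannot be told apart.

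Total counts were between 33157236 and 44540888 per node, and Ighv counts were between 31374 and 155746. The targeted gene Jag1 was at 27.8, 20.7 and 23.8 CPM (counts per 1 M counts of the library) in Foxp3ΔJag1 nodes 1, 2 and 3, against 22.0, 23.2 and 24.4 CPM in Foxp3Ctrl nodes 1, 2 and 3, so the labels could not be checked on it in whole nodes. All 12 listed B cell markers were detected in the nodes, and the B cell list summed to 4912 to 5343 CPM in Foxp3ΔJag1 nodes and 4664 to 5315 CPM in Foxp3Ctrl nodes. Markers of other tissues differed in some libraries. The 6 epithelial genes summed to 7.27 to 10.8 CPM in Foxp3ΔJag1 nodes, against 13.0 to 138 CPM in Foxp3Ctrl nodes, with the highest value in Foxp3Ctrl node 3. The 4 erythroid genes summed to 13.8 to 22.7 CPM in Foxp3ΔJag1 nodes, against 28.5 to 68.2 CPM in Foxp3Ctrl nodes. The 6 adipocyte genes stood at 251 CPM in Foxp3ΔJag1 node 1 and 199 CPM in Foxp3Ctrl node 3, against 20.6 to 83.1 CPM in the other 4 nodes. The 4 melanoma genes summed to 23.04 CPM in Foxp3Ctrl node 3, against 4.13 to 9.03 CPM in the other 5 nodes. The part of these tissues in the results was not tested.

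The 60 bases at the 3′ end of the annotated V transcript are shown for the segments that led a node, because this end is joined to D and carries the start of the most variable antigen-binding loop. The sequences are those of the GENCODE M21 transcripts of GRCm38, written 5′ to 3′ in the sense of the gene, with capitals from the TGT codon of the conserved cysteine to the end of the segment. They follow the order Foxp3ΔJag1 nodes 1, 2 and 3, then Foxp3Ctrl nodes 1, 2 and 3.
Ighv5-9-1: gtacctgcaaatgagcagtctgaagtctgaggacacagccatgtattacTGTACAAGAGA
Ighv5-4: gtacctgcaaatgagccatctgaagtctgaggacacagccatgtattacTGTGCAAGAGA
Ighv5-6: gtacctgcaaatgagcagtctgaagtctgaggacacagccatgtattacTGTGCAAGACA
Ighv1-19: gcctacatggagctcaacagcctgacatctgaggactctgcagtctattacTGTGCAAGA
Ighv1-15: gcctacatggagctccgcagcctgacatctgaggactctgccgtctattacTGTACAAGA
Ighv1-26: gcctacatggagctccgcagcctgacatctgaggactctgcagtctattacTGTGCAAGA
These genes lie at chr12:113736111-113736630 (Ighv5-9-1), chr12:113597446-113597977 (Ighv5-4), chr12:113625506-113625956 (Ighv5-6), chr12:114708648-114709135 (Ighv1-19), chr12:114657353-114657786 (Ighv1-15) and chr12:114788372-114788805 (Ighv1-26). Some of the other segments described below are shown in the same way.
Ighv1-69: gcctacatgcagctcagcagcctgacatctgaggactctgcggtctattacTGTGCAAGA
Ighv9-4: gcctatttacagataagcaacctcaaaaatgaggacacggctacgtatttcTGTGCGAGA
Ighv3-6: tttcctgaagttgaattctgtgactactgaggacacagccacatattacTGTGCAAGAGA
Ighv2-6: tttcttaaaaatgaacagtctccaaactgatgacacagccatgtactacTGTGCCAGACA
Ighv1-67: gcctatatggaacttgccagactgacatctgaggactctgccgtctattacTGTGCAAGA
Ighv15-2: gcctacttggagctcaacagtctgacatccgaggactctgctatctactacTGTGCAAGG
Ighv9-3: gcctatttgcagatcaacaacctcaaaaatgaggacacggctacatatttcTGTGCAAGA
They lie at chr12:115623161-115623595 (Ighv1-69), chr12:114299961-114300389 (Ighv9-4), chr12:114288152-114288582 (Ighv3-6), chr12:113716670-113717103 (Ighv2-6), chr12:115603940-115604376 (Ighv1-67), chr12:114564578-114565012 (Ighv15-2) and chr12:114140692-114141122 (Ighv9-3). The cysteine codon was found in 108 of the 113 transcripts, and the 9 bases that start at it were TGTGCAAGA in 63 members. Segments with that end took 49.9, 58.4 and 55.8% of Ighv counts in Foxp3ΔJag1 nodes, against 65.3, 48.6 and 63.4% in Foxp3Ctrl nodes, and the groups overlapped. The end TGTACAAGA was found in 4 members, among them Ighv5-9-1 and Ighv1-15, and took 21.7, 12.2 and 6.60% in Foxp3ΔJag1 nodes, against 2.67, 26.8 and 5.71% in Foxp3Ctrl nodes.

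Near-identical copies limit what a count says about a single segment. Of the 113 members, 65 were at least 95% identical to another over the 280 bases that end at the cysteine codon, and 28 of the 108 with that codon shared all 60 bases of their end with another. Still, 75 members had no stretch of 100 bases in common with any other annotated member. Ighv1-15, the segment of highest mean share, and Ighv1-23 have the same 60-base end and are shown over 300 bases, with capitals at the 5 bases where they differ.
Ighv1-15: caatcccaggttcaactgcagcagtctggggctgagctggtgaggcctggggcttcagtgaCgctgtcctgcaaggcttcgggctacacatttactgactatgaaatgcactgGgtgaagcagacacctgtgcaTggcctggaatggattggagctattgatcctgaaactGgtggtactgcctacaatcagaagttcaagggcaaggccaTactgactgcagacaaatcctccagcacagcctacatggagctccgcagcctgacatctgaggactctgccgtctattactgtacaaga
Ighv1-23: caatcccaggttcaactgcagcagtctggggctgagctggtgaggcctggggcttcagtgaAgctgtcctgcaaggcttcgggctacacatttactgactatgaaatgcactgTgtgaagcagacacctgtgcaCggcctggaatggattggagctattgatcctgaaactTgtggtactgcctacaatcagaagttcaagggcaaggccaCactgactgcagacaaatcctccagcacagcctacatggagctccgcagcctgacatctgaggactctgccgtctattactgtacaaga
Ighv1-23, at chr12:114764450-114764883, took 0.672, 0.0108 and 0.854% of Ighv counts in Foxp3ΔJag1 nodes and 0.00556, 0.0655 and 0.0382% in Foxp3Ctrl nodes. Its share was therefore not a fixed part of that of Ighv1-15, whose shares are given below. The most extreme case is Ighv1-71, of whose 100-base windows 3.08% were its own, the rest being shared with Ighv1-62-2, so that the counts of both are uncertain. How reads that map to several segments were counted is not stated in the labels.

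Summed Ighv counts were at 1364, 1681 and 1107 CPM in Foxp3ΔJag1 nodes 1, 2 and 3, against 2475, 3616 and 885 CPM in Foxp3Ctrl nodes 1, 2 and 3. The lowest and both highest values were Foxp3Ctrl nodes, and the 3 Foxp3ΔJag1 nodes lay between them. The mean was 1384 ± 287 CPM in Foxp3ΔJag1 nodes and 2325 ± 1372 CPM in Foxp3Ctrl nodes (SD, n = 3 each), a difference of -942 CPM that is smaller than the SD of the controls. Without Foxp3Ctrl node 2 this difference was -296 CPM, and without Foxp3Ctrl node 3 it was -1662 CPM. Within a group, the highest node exceeded the lowest 1.52 times in Foxp3ΔJag1 mice and 4.09 times in Foxp3Ctrl mice. The partner segments of the kappa light chain (Igkv) were at 2255, 2158 and 1945 CPM in Foxp3ΔJag1 nodes, against 3469, 4938 and 1449 CPM in Foxp3Ctrl nodes, with the same 3 control nodes outermost.

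Plasma cell genes varied alongside the Ighv level. The 12 listed genes, which include Jchain (the joining chain of secreted IgM and IgA) and Xbp1 (a factor of the secretory programme), summed to 1832, 1489 and 1422 CPM in Foxp3ΔJag1 nodes, against 2371, 2388 and 1194 CPM in Foxp3Ctrl nodes. All 12 had a fold change below 0 and none was called by edgeR, the smallest adjusted p being 0.953. Of the 8 listed heavy constant region genes, to which V exons are spliced, 3 had a log2 fold change above 0 and 5 below. The most abundant, Ighg1, was at 4884, 4239 and 2043 CPM in Foxp3ΔJag1 nodes, against 3022, 8561 and 1310 CPM in Foxp3Ctrl nodes. Ighm was at 2309, 2725 and 2331 CPM in Foxp3ΔJag1 nodes, against 3050, 2959 and 2406 CPM in Foxp3Ctrl nodes. The lowest log2 fold change of the 8 was that of Ighg2c. It was at 725, 657 and 471 CPM in Foxp3ΔJag1 nodes and 3100, 2033 and 470 CPM in Foxp3Ctrl nodes. The highest was that of Igha, at 393, 26.7 and 289 CPM in Foxp3ΔJag1 nodes, against 40.6, 62.5 and 12.1 CPM in Foxp3Ctrl nodes. Igha was high in Foxp3ΔJag1 nodes 1 and 3. None of the 8 passed the edgeR test (smallest adjusted p of 0.953). The part of these genes and of the plasma cell genes in the Ighv values was not tested.

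**Figure D1:**
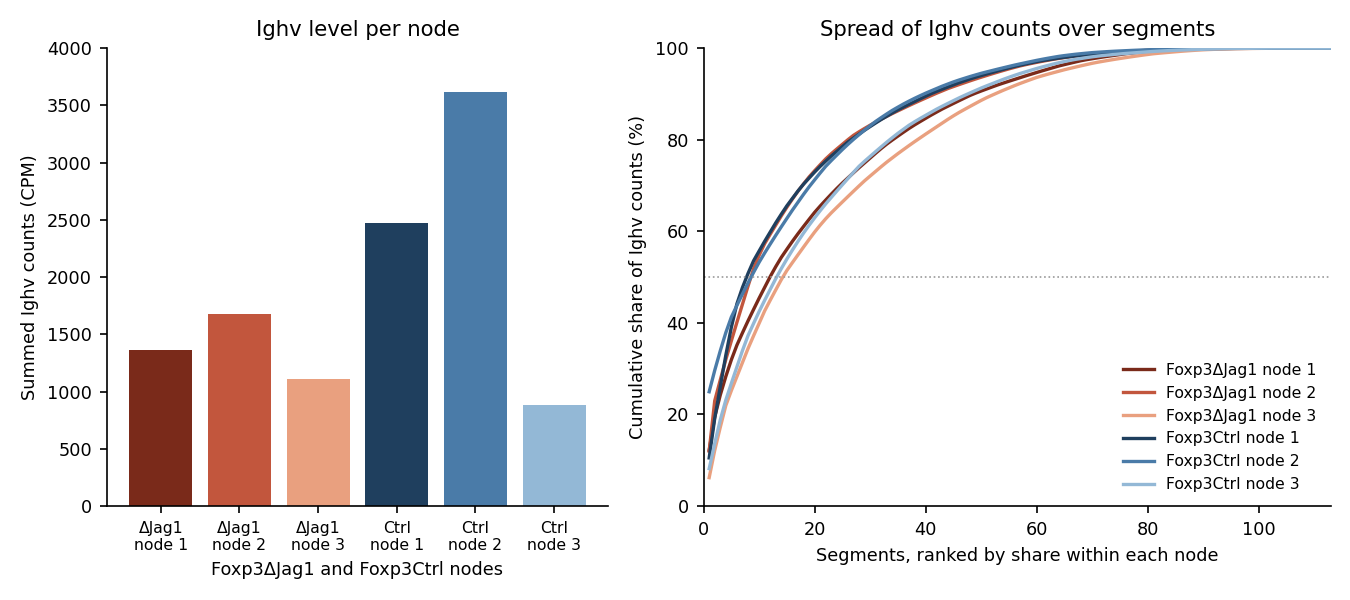
Left, summed Ighv counts in CPM for each of the 6 nodes. Right, cumulative share of Ighv counts (%) against the rank of the segment within its node, 1 line per node, with a dotted line at 50%. The Foxp3ΔJag1 nodes lie between 1107 and 1681 CPM and the Foxp3Ctrl nodes between 885 and 3616 CPM, and the curves of both groups are interleaved.

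Many segments contributed in every node. A count was found for 101 of the 113 segments in all 6 nodes, and 49 had at least 100 counts in each, while 2 segments had no count in any node. The number of segments needed to reach 50% of Ighv counts was 12, 9 and 15 in Foxp3ΔJag1 nodes, against 8, 9 and 14 in Foxp3Ctrl nodes. The effective number of segments, the exponential of the Shannon entropy of the shares, was 47.9, 38.7 and 56.6 in Foxp3ΔJag1 nodes and 38.7, 32.9 and 51.1 in Foxp3Ctrl nodes. Its mean was 47.7 ± 8.92 in Foxp3ΔJag1 nodes and 40.9 ± 9.29 in Foxp3Ctrl nodes (SD, n = 3 each), a difference smaller than the SD of either group. With Foxp3ΔJag1 node 2 as the sole node of its group, the difference was -2.20, opposite in sign. Bray-Curtis distances between the share profiles (0 for identical, 1 for no overlap) were 0.407 to 0.529 between the groups, 0.340 to 0.431 among Foxp3ΔJag1 nodes and 0.395 to 0.499 among Foxp3Ctrl nodes. The range between the groups overlapped both ranges within a group.

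A different segment led each of the 6 nodes. In Foxp3ΔJag1 nodes it was Ighv5-9-1 in node 1, Ighv5-4 in node 2 and Ighv5-6 in node 3, with 12.2, 12.01 and 6.21% of Ighv counts. In Foxp3Ctrl nodes it was Ighv1-19 in node 1, Ighv1-15 in node 2 and Ighv1-26 in node 3, with 10.5, 25.0 and 8.18%. The counts behind these shares are large: the widest 95% Wilson interval of a named share in a node reached 0.303 percentage points to either side, which covers counting error only.

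The leaders differed in how far they were confined to their node. Ighv5-9-1 took 12.2, 1.04 and 0.805% in Foxp3ΔJag1 nodes, against 1.03, 1.53 and 1.40% in Foxp3Ctrl nodes, so it was high in Foxp3ΔJag1 node 1 alone and the groups overlapped. Ighv5-4 took 1.11, 12.01 and 1.70% in Foxp3ΔJag1 nodes, against 1.01, 0.453 and 0.886% in Foxp3Ctrl nodes. It was above every control in all 3 Foxp3ΔJag1 nodes, but by a small margin outside node 2. Ighv1-19 took 1.06, 0.734 and 2.24% in Foxp3ΔJag1 nodes, against 10.5, 1.08 and 0.688% in Foxp3Ctrl nodes, high in Foxp3Ctrl node 1 alone. Ighv1-15 took 4.06, 11.0 and 3.26% in Foxp3ΔJag1 nodes, against 1.32, 25.0 and 3.58% in Foxp3Ctrl nodes, and it was prominent in node 2 of both groups. Ighv1-26 took 1.58, 2.00 and 2.78% in Foxp3ΔJag1 nodes, against 1.62, 4.67 and 8.18% in Foxp3Ctrl nodes, overlapping at the low end.

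Other abundant segments were spread more evenly. Ighv9-3 took 7.27, 4.48 and 5.03% in Foxp3ΔJag1 nodes, against 1.62, 2.31 and 2.20% in Foxp3Ctrl nodes, the clearest separation among the 10 segments of highest mean share. Ighv8-8 took 2.17, 3.94 and 3.06% in Foxp3ΔJag1 nodes, against 2.01, 1.87 and 1.81% in Foxp3Ctrl nodes, also with no overlap. Ighv3-6 went the other way, with 1.13, 2.01 and 1.17% in Foxp3ΔJag1 nodes, against 6.91, 2.54 and 5.48% in Foxp3Ctrl nodes. Ighv5-6 (3.65, 4.54 and 6.21% in Foxp3ΔJag1 nodes, 5.09, 1.64 and 1.70% in Foxp3Ctrl nodes) and Ighv3-8 (0.603, 1.02 and 5.97% in Foxp3ΔJag1 nodes, 6.13, 3.40 and 3.66% in Foxp3Ctrl nodes) overlapped between the groups. Annotated exon lengths, between 294 and 480 bases, changed this order little, and 8 of the 10 leading segments were also among the 10 of highest share per kilobase. Over all 113 members, the shares of 11 segments were higher in every Foxp3ΔJag1 node than in any Foxp3Ctrl node (9.73%) and those of 10 were lower (8.85%). These percentages are parts of the members themselves. A share is defined for members only, so no background of other genes stands beside these counts, and they are descriptions. Shares within a node sum to 100%, so that a high segment lowers all others.

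**Figure D2:**
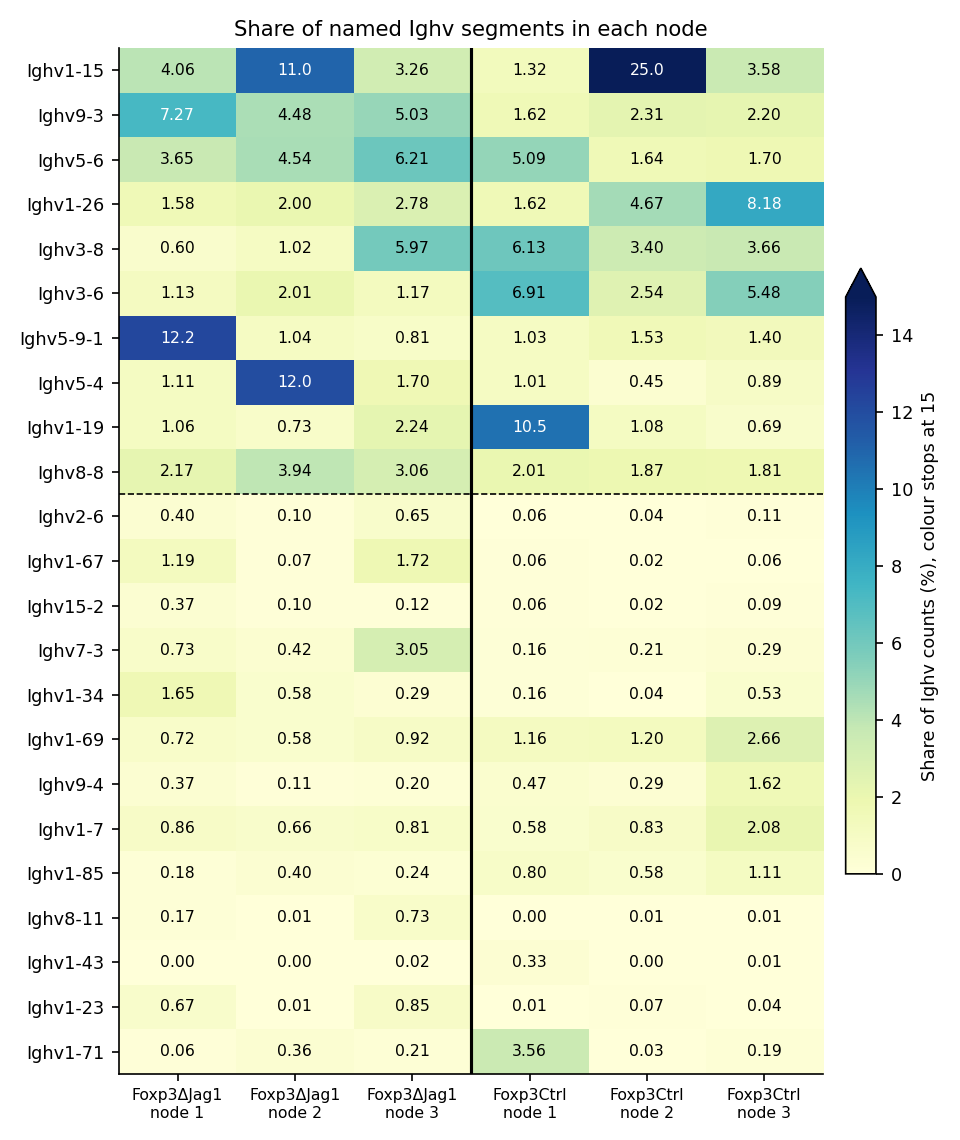
Share of Ighv counts (%) in each node, printed in each cell. Above the dashed line are the 10 segments of highest mean share. Below it are the other segments with the smallest p in each direction or the largest ratio of their highest node to the other nodes. Foxp3ΔJag1 nodes stand left of the black line. Ighv5-9-1 is dark in 1 node (12.2%), Ighv1-15 is dark in node 2 of both groups (11.0 and 25.0%), and Ighv9-3 is darker in all 3 Foxp3ΔJag1 nodes.

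Segments are grouped by sequence into families, of which 16 are represented. Ighv1, the largest family with 53 members, took 40.7, 41.5 and 40.2% of Ighv counts in Foxp3ΔJag1 nodes, against 50.9, 63.3 and 54.9% in Foxp3Ctrl nodes. Ighv5, with 10 members, took 21.7, 19.6 and 12.1% in Foxp3ΔJag1 nodes, against 9.29, 7.10 and 6.26% in Foxp3Ctrl nodes. Neither family overlapped between the groups, and the mean difference was -15.5 percentage points for Ighv1 and 10.2 for Ighv5. Scores over several members carry no p-value here, and 3 against 3 nodes cannot give an exact permutation p below 0.1. All 3 Foxp3ΔJag1 nodes were led by an Ighv5 segment and all 3 Foxp3Ctrl nodes by an Ighv1 segment, so that leaving out leading segments lowers Ighv5 in Foxp3ΔJag1 nodes and Ighv1 in Foxp3Ctrl nodes by construction, and the values that follow are descriptions. With the highest segment of each node left out of that node, Ighv1 took 46.4, 47.1 and 42.9% in Foxp3ΔJag1 nodes, against 45.1, 51.1 and 50.8% in Foxp3Ctrl nodes, and Ighv5 took 10.8, 8.58 and 6.27% in Foxp3ΔJag1 nodes, against 10.4, 9.46 and 6.81% in Foxp3Ctrl nodes. Both families then overlapped between the groups, with differences of -3.54 and -0.34 percentage points. With the 6 leading segments removed from all nodes instead, Ighv5 took 6.18, 2.85 and 4.07% in Foxp3ΔJag1 nodes, against 2.70, 5.29 and 2.72% in Foxp3Ctrl nodes, and the groups overlapped. Ighv1 then took 44.6, 40.4 and 38.5% in Foxp3ΔJag1 nodes, against 47.1, 49.6 and 50.8% in Foxp3Ctrl nodes, without overlap.

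Among the smaller families, 4 more were higher in every Foxp3ΔJag1 node than in any Foxp3Ctrl node. Ighv9, with 4 members, took 8.53, 5.04 and 6.33% in Foxp3ΔJag1 nodes, against 2.28, 2.86 and 4.69% in Foxp3Ctrl nodes. Ighv8, with 9 members, took 5.25, 5.87 and 7.78% in Foxp3ΔJag1 nodes, against 3.61, 4.47 and 4.32% in Foxp3Ctrl nodes. Ighv14, with 4 members, took 5.31, 8.19 and 5.50% in Foxp3ΔJag1 nodes, against 4.91, 4.12 and 4.66% in Foxp3Ctrl nodes, where the gap between the groups was small. The single Ighv15 segment, Ighv15-2, was the rarest of these, at 0.372, 0.100 and 0.116% in Foxp3ΔJag1 nodes and 0.0590, 0.0193 and 0.0892% in Foxp3Ctrl nodes. The other 10 families overlapped. Ighv3 took 5.48, 7.58 and 8.52% in Foxp3ΔJag1 nodes, against 13.9, 7.26 and 10.1% in Foxp3Ctrl nodes, and Ighv2 took 5.10, 7.54 and 6.17% in Foxp3ΔJag1 nodes, against 1.87, 2.39 and 9.03% in Foxp3Ctrl nodes. The only Ighv13 member, Ighv13-2, was at 8.66% in Foxp3Ctrl node 1, 3.06% in Foxp3ΔJag1 node 3 and no more than 0.529% in the other 4 nodes. In CPM, where the level of the whole locus enters, every family overlapped between the groups.

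**Figure D3:**
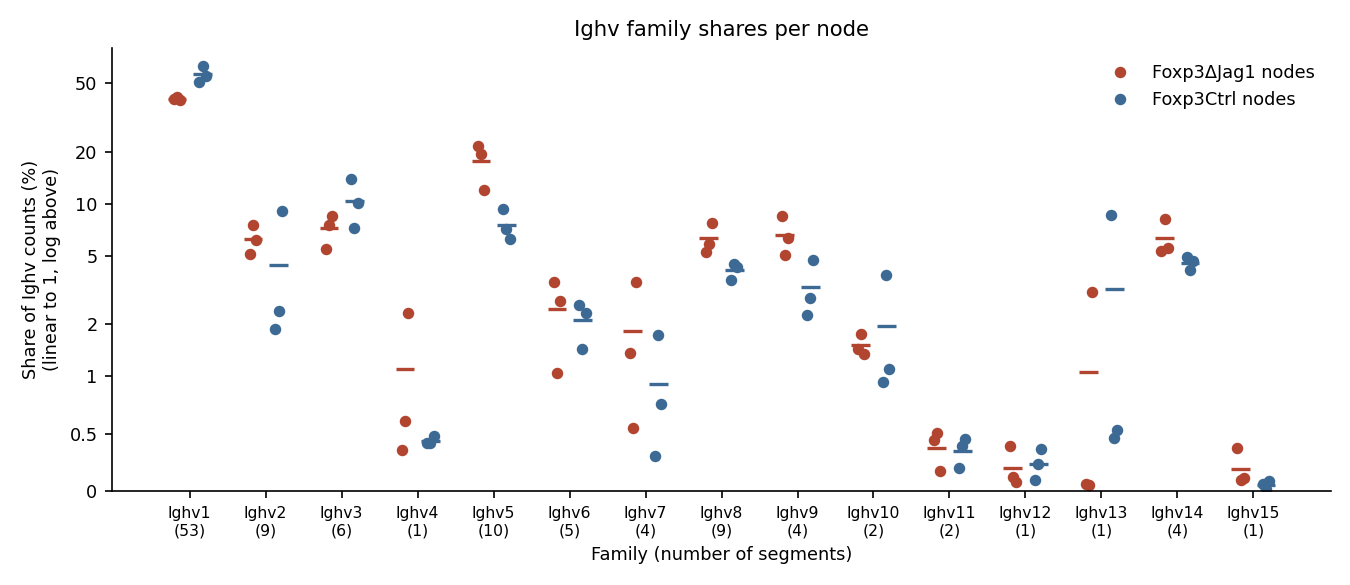
Share of Ighv counts (%) taken by each family in each node, 1 point per node and a bar at the group mean, with the number of segments in brackets and Ighv16, which had no count, left out. The axis is linear up to 1% and logarithmic above. Ighv1 is lower (40.2 to 41.5% against 50.9 to 63.3%) and Ighv5 is higher (12.1 to 21.7% against 6.26 to 9.29%) in Foxp3ΔJag1 nodes without overlap.

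Families occupy stretches of the locus, so position and family cannot be separated in these data. The 29 segments within 500 kb of the segment nearest to the D segments, which hold all members of Ighv2 and Ighv5 and none of Ighv1, took 35.3, 36.7 and 26.8% of Ighv counts in Foxp3ΔJag1 nodes. In Foxp3Ctrl nodes they took 16.4, 14.5 and 20.9%, below every Foxp3ΔJag1 node. All 3 Foxp3ΔJag1 leaders lay in this stretch, with 12.2, 12.01 and 6.21% of their nodes' Ighv counts, and no Foxp3Ctrl leader did. This separation therefore carries the limit given above for Ighv5. The 17 segments beyond 2000 kb, of which 15 belong to Ighv1, took 10.9, 13.3 and 11.3% in Foxp3ΔJag1 nodes, against 20.8, 15.1 and 15.6% in Foxp3Ctrl nodes, again without overlap. The 3 bins between overlapped between the groups. Of all 113 members, 53 are Ighv1 segments, 29 lie within the first 500 kb and 17 beyond 2000 kb. Of the 10 segments whose shares were lower in all Foxp3ΔJag1 nodes, 9 were Ighv1 segments and 6 lay beyond 2000 kb. Of the 11 that were higher, 3 were Ighv1 segments and 4 lay within the first 500 kb. A further 3 of them lay between 500 and 1000 kb, 3 between 1500 and 2000 kb and 1 beyond 2000 kb. Across the 95 segments tested, position and the log2 fold change of the share had a Spearman rho of -0.29, and across the 48 of Ighv1 it was -0.20. These describe segments that share libraries and family, and are not independent replicates. Mean share itself showed little relation to position, with a Spearman rho of -0.03 over 113 segments.

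**Figure D4:**
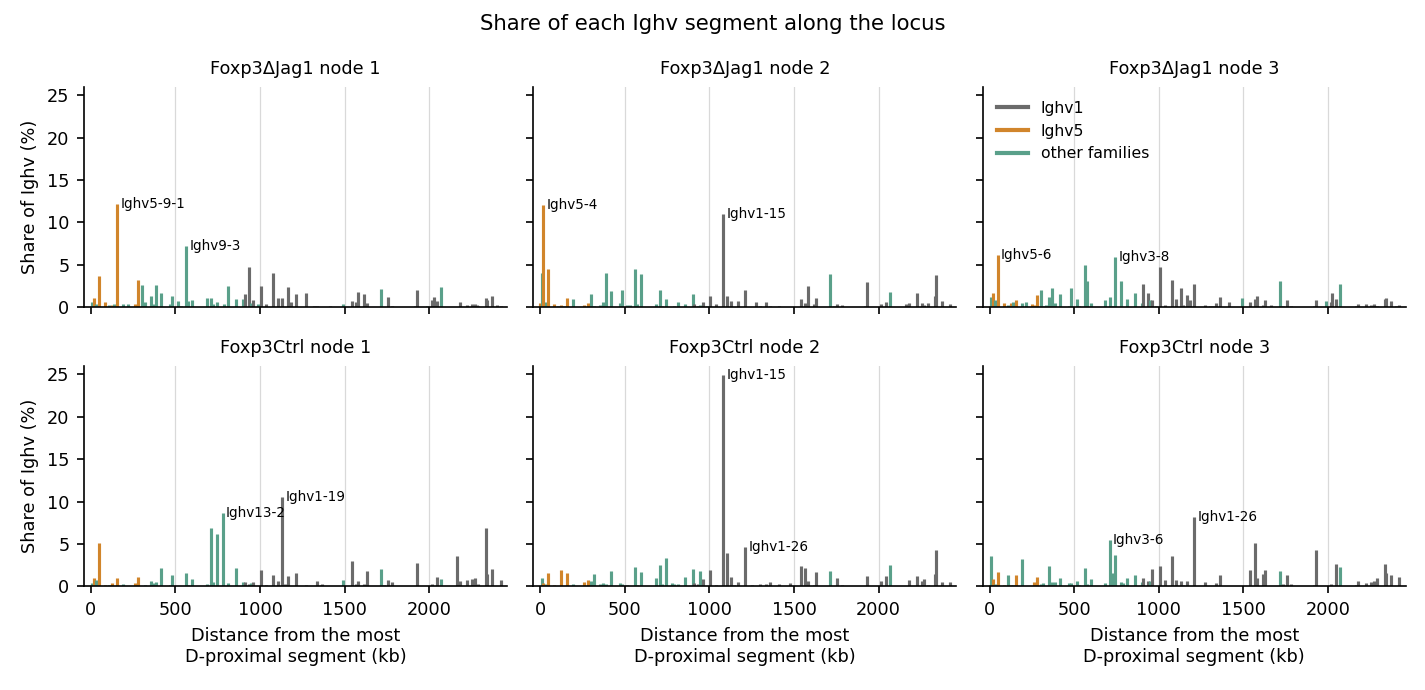
Share of Ighv counts (%) of each segment in each node, against the distance in kb from the segment nearest to the D segments. Grey lines are Ighv1, orange lines Ighv5 and green lines the other families, and the 2 highest segments of each node are named. Orange lines lead in all 3 Foxp3ΔJag1 nodes (upper row) and grey lines lead in all 3 Foxp3Ctrl nodes (lower row).

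Single segments were tested with edgeR's quasi-likelihood test on the counts of the whole libraries, adjusted over all 18440 genes that passed the filter on low counts. Of the 113 members 95 were tested, and the other 18 did not pass that filter. Not all of these were rare. Over the nodes Ighv8-11 had 469 counts and Ighv1-43 had 314, most of them in 1 or 2 nodes. None was called at an adjusted p under 0.05, where 7 of all genes were (0.038%). At an unadjusted p under 0.05, 3 segments were higher in Foxp3ΔJag1 nodes, against a background of 1.49% of all genes tested, and 9 were lower, against a background of 1.66%. DESeq2 called 4 members, against 0.239% of the genes to which it gave an adjusted p, limma-voom called 0 and voomWithQualityWeights called 2. In direction, 35 members were higher and 60 lower, with a median log2 fold change of -0.72, beside -0.004 over all genes tested. The median of the members rested on single controls: it was 0.14 without Foxp3Ctrl node 2 and -0.27 without Foxp3Ctrl node 1. In CPM, the groups did not overlap for 1 tested member in the higher direction (background 4.11%) and for 7 in the lower direction (background 3.18%).

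The smallest p belonged to Ighv1-69, with 9.79, 9.68 and 10.2 CPM in Foxp3ΔJag1 nodes, against 28.6, 43.3 and 23.5 CPM in Foxp3Ctrl nodes. The Foxp3ΔJag1 nodes were nearly equal and all below the controls, and the log2 fold change was -1.72 ± 0.23 (SE, edgeR adjusted p = 0.166). Its share of Ighv counts was also lower without overlap, at 0.718, 0.576 and 0.923% in Foxp3ΔJag1 nodes, against 1.16, 1.20 and 2.66% in Foxp3Ctrl nodes. Ighv1-69 shares its last 60 bases with 6 other Ighv1 segments, and 97.6% of its 100-base windows were its own.

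Ighv9-4 was at 5.00, 1.87 and 2.20 CPM in Foxp3ΔJag1 nodes, against 11.6, 10.6 and 14.4 CPM in Foxp3Ctrl nodes, with no overlap and a log2 fold change of -2.03 ± 0.36 (SE, edgeR adjusted p = 0.530). In share the groups overlapped for Ighv9-4, at 0.366, 0.111 and 0.199% in Foxp3ΔJag1 nodes, against 0.471, 0.294 and 1.62% in Foxp3Ctrl nodes. The mean share of Ighv9-4 was lower in Foxp3ΔJag1 nodes and that of its sister Ighv9-3 was higher, so these Ighv9 segments did not move together. Ighv3-6 was at 15.4, 33.8 and 13.0 CPM in Foxp3ΔJag1 nodes, against 171, 91.8 and 48.5 CPM in Foxp3Ctrl nodes, with a log2 fold change of -2.36 ± 0.69 (SE, edgeR adjusted p = 0.953). Ighv1-85, the segment farthest from D, was at 2.39, 6.76 and 2.65 CPM in Foxp3ΔJag1 nodes, against 19.8, 20.8 and 9.81 CPM in Foxp3Ctrl nodes, again apart. Ighv1-7 was at 11.7, 11.2 and 8.91 CPM in Foxp3ΔJag1 nodes, against 14.2, 30.02 and 18.4 CPM in Foxp3Ctrl nodes, apart by a narrow margin.

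In the other direction, Ighv2-6 was at 5.52, 1.75 and 7.21 CPM in Foxp3ΔJag1 nodes, against 1.43, 1.35 and 1.02 CPM in Foxp3Ctrl nodes, the one tested segment whose CPM was higher without overlap. Its log2 fold change was 1.90 ± 0.48 (SE, edgeR adjusted p = 0.953). Its share of Ighv counts overlapped between the groups, at 0.405, 0.104 and 0.651% in Foxp3ΔJag1 nodes, against 0.0578, 0.0372 and 0.115% in Foxp3Ctrl nodes. Ighv1-67 was at 16.2, 1.24 and 19.1 CPM in Foxp3ΔJag1 nodes, against 1.51, 0.673 and 0.508 CPM in Foxp3Ctrl nodes. It was high in Foxp3ΔJag1 nodes 1 and 3 alone, with a log2 fold change of 3.73 ± 1.17 (SE, edgeR adjusted p = 0.953). Ighv15-2 was at 5.08, 1.69 and 1.28 CPM in Foxp3ΔJag1 nodes, against 1.46, 0.697 and 0.790 CPM in Foxp3Ctrl nodes. Ighv7-3 was at 9.89, 6.997 and 33.8 CPM in Foxp3ΔJag1 nodes, against 4.02, 7.64 and 2.59 CPM in Foxp3Ctrl nodes, and Ighv1-34 at 22.6, 9.77 and 3.26 CPM in Foxp3ΔJag1 nodes, against 3.97, 1.53 and 4.71 CPM in Foxp3Ctrl nodes. Both overlapped between the groups.

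Scaling every library to its summed Ighv counts turns the fold change of a segment into that of its share. On that scale the median of all genes tested moved to 0.31 on the log2 scale, and that of the 95 members to 0.04, with 48 members higher and 47 lower. edgeR then called 2 members, both higher in Foxp3ΔJag1 nodes, against 0.125% of all genes tested. These were Ighv1-67, with a log2 fold change of 4.46 ± 0.91 (SE, edgeR adjusted p = 0.00115), and Ighv1-23, with 3.80 ± 0.93 (SE, edgeR adjusted p = 0.0345). Ighv1-67 took 1.19, 0.0736 and 1.72% of Ighv counts in Foxp3ΔJag1 nodes, against 0.0612, 0.0186 and 0.0574% in Foxp3Ctrl nodes. Both segments were high in Foxp3ΔJag1 nodes 1 and 3 and low in node 2. The SE on this scale was 0.736 for Ighv1-15, at 1.32 to 25.0% over the nodes, and 0.742 for Ighv14-2, at 1.04 to 2.12%. On the whole-library scale these SEs were 1.74 and 0.80. The share-scale SE thus did not follow a segment's own spread between nodes, so it and the p-values from it do not measure that spread. At an unadjusted p under 0.05 on the share scale, 15 members were higher, against a background of 0.32% of all genes tested, and 9 were lower, against 0.309%. Dividing by summed Ighv counts puts the spread of the Ighv level between nodes onto all other genes, so nothing is read from the members' counts against these backgrounds.

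**Figure D5:**
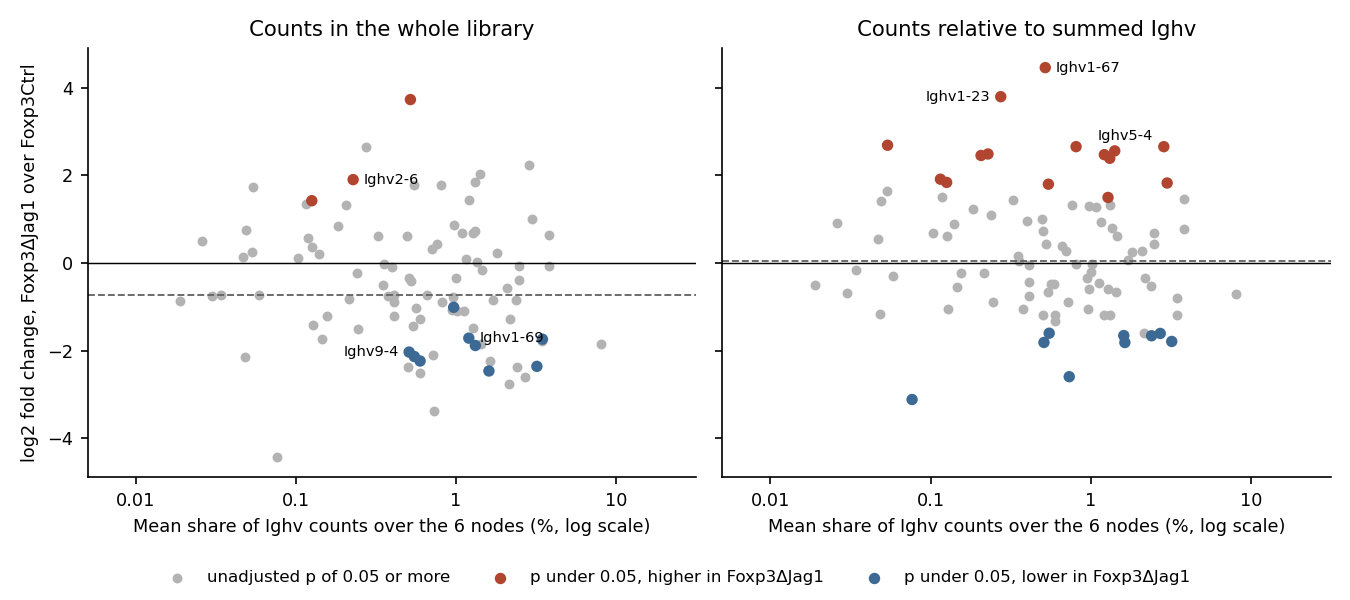
Log2 fold change, Foxp3ΔJag1 over Foxp3Ctrl, of the 95 tested segments against their mean share of Ighv counts (%, log scale), with counts scaled to the whole library (left) or to summed Ighv (right). Red and blue points have an unadjusted p under 0.05, the dashed line is the median of the members, and the 3 segments of smallest p are named. The median lies at -0.72 on the left and at 0.04 on the right.

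Uneven segments were common. Of the 95 segments with at least 100 counts over the nodes, 32 had a highest share at least 5 times the median of the other 5 nodes, a measure that also takes segments high in 2 nodes. The highest node was Foxp3ΔJag1 node 1 for 4 of these, Foxp3ΔJag1 node 2 for 2 and Foxp3ΔJag1 node 3 for 12, against 5, 4 and 5 for Foxp3Ctrl nodes 1, 2 and 3. The largest ratio was that of Ighv8-11, 101 times, with 91, 4 and 359 counts in Foxp3ΔJag1 nodes and 2, 9 and 4 counts in Foxp3Ctrl nodes. Ighv1-43 followed at 91.7 times, with 1, 2 and 8 counts in Foxp3ΔJag1 nodes and 296, 4 and 3 counts in Foxp3Ctrl nodes. Ighv1-71 was at 3.56% in Foxp3Ctrl node 1 and no more than 0.355% elsewhere. Neither Ighv8-11 nor Ighv1-43 passed the filter on low counts, so neither was tested.

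Foxp3ΔJag1 nodes 1 and 3 stood apart from the other 4 in reads of Ighv pseudogenes, segments annotated as unable to give a chain and not among the members. The 70 annotated pseudogenes were at 57.3, 3.08 and 82.4 CPM in Foxp3ΔJag1 nodes, against 5.15, 10.7 and 3.86 CPM in Foxp3Ctrl nodes. Most of these reads fell on Ighv3-2, with 791, 10 and 1092 counts in Foxp3ΔJag1 nodes and 29, 13 and 28 in Foxp3Ctrl nodes, and on Ighv4-2, with 847, 14 and 747 counts in Foxp3ΔJag1 nodes and 17, 16 and 12 in Foxp3Ctrl nodes. The members Ighv1-67, Ighv1-23 and Ighv8-11 were high in the same 2 nodes. The share of Ighv2-6 was also highest in these 2 nodes. Foxp3ΔJag1 node 2 was also taken as the sole node of its group, a choice made after these reads were seen. The difference of the Ighv1 share was then -14.9 percentage points and that of the Ighv5 share 12.01. In that node Ighv5-4 alone took 12.01% of Ighv counts, of 19.6% for all Ighv5 segments. A shared source of the reads high in nodes 1 and 3 was not tested, nor was whether all 6 mice carry the same alleles of the locus. Both segments called on the share scale were high in these 2 nodes, and their values carry the same limit.

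Control tumours of the same mouse codes held few Ighv reads, with 23, 98 and 78 counts in Foxp3Ctrl tumours 1, 2 and 3, of totals between 32117478 and 40968494. The segments they held were not simply the leaders of the node. In tumour 3, Ighv1-80 had 33 of 78 counts, 42.3% (95% Wilson interval 31.96 to 53.4%), against 2.61% in the node of that mouse. Ighv1-26 followed with 17 counts, 21.8% (14.1 to 32.2%), against 8.18% in that node, which it led. In tumour 2, Ighv2-3 had 16 of 98 counts and Ighv10-3 had 13, against 0.304 and 1.81% of the node. Tumour 1 had no segment above 3 counts. Each tumour is a single library, and the intervals cover counting error only.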

How the data were processed

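The authors deposited raw read counts, 1 value for each gene and library, with no scaling. The submitters' processing notes list, per their own names, Trimmomatic (0.36), the aligner STAR (2.5.2b) and Subread's featureCounts (1.5.2), with the build GRCm38. For the annotation, strand setting and multi-mapping reads, the choice is not given in the sources used here, and the labels' protocols name oligo(dT) enrichment or rRNA depletion without saying which. The labels describe 13 samples, and 3 columns of the tumour table match no sample and were not used, so Foxp3ΔJag1 tumours were not analysed here. Of the identifiers, 48970 matched GENCODE M21, the source of symbols, types, positions and transcript sequences. Signals for recombination and promoters were not analysed here.

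Members, marker lists and tests were chosen with earlier results of these data known. Segments were named by rule: the 10 of highest mean share, the leader of each node, those called and the 5 of smallest p in each direction, the 5 of largest ratio of the highest node to the median of the other nodes among those with at least 100 counts, the 3 leading segments of Ighv1, Ighv2 and Ighv5 and the leading one of each other family. Ighv1-80, Ighv2-3, Ighv10-3, Ighv1-62-2, the constant region gene Igha and the pseudogenes were named after their values were seen. The comparison used edgeR 4.0.16 in R 4.3.3 (TMM, filterByExpr, robust quasi-likelihood test) on the 6 nodes with Benjamini-Hochberg adjustment at 0.05. CPM uses total counts. Shares, families and positions were computed in Python 3.11.15 with pandas 2.3.3, and identities with Biopython 1.88. Alternatives were other scalings, DESeq2 1.42.0, voom of limma 3.58.1, other filters, a replicate block, leaving out each node, shares per kilobase, unique segments, removal of leading segments and Foxp3ΔJag1 node 2 alone, the last 4 kinds in part chosen after seeing the data. Deviations of same-numbered nodes from their group means correlated at -0.165, 0.0336 and -0.124, so the numbers do not pair the nodes. Replicates differed by more than sampling noise (chi-square per degree of freedom 18.8 to 83.6). The nodes are separate mice by their library names. The edgeR script was also run on counts simulated from the means and fitted dispersions of these nodes. Of 100 genes changed 2-fold it called 61, and of 100 changed 4-fold it called 92. Of its 173 calls, 20 were false, a larger part than the threshold of 0.05 allows for. The changed genes were drawn at random from all genes tested, so these rates do not describe the Ighv segments. The log2 fold change of Ighv1-15, for one, had an SE of 1.74. That no member was called therefore does not exclude large changes of single segments.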

Additional observations from a re-analysis of the deposited data

Results flagged for a closer look

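Reads of Ighv pseudogenes, which lie outside the members, were at 57.3 CPM in Foxp3ΔJag1 node 1 and 82.4 CPM in Foxp3ΔJag1 node 3, above the highest Foxp3Ctrl node at 10.7 CPM, while Foxp3ΔJag1 node 2 was at 3.08 CPM. They made up 4.03 and 6.93% of all reads on Ighv genes and pseudogenes in those 2 nodes, against at most 0.435% in the other 4 nodes. Ighv12-2 had 31, 0 and 577 counts in Foxp3ΔJag1 nodes and 0, 6 and 0 counts in Foxp3Ctrl nodes, and Ighv1-33 had 37, 1 and 402 counts in Foxp3ΔJag1 nodes and 2, 0 and 4 counts in Foxp3Ctrl nodes. No pseudogene with an edgeR test passed it, the adjusted p of Ighv3-2 and Ighv4-2 being 0.953.

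Control tumours, which entered no comparison, held 23, 98 and 78 Ighv counts, above the 3 counts that a count of 0 allows.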

How the results depend on the processing

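No member was called in the comparison as fitted, and between 0 and 4 were called under the alternatives. The count was 2 with counts scaled to summed Ighv, 4 with DESeq2 and 2 with voomWithQualityWeights, and it ranged from 0 to 3 when 1 node was left out. The count of all genes called, 7 as fitted, was 23 with counts scaled to summed Ighv, 44 with DESeq2, 16 without a low-count filter and 17 with voomWithQualityWeights. It ranged from 6 to 21 when 1 node was left out. With the replicate number as a block, 11 genes and 0 members were called, and the numbers do not pair the nodes. DESeq2 called Ighv2-6, Ighv9-4, Ighv1-7 and Ighv1-69, voomWithQualityWeights called Ighv9-4 and Ighv1-69, and Ighv1-69 was also called without Foxp3Ctrl node 2 (adjusted p = 0.0139) or without Foxp3Ctrl node 3 (0.00966). The 10 segments followed were the 5 of smallest p in each direction. None changed sign under the 18 alternatives, and 12 of 180 pairs of segment and alternative passed the threshold. The segments were picked by p on these same nodes, so a kept sign is a description and no independent check. With the highest segment of each node left out, the difference was -3.54 percentage points for Ighv1 and -0.34 for Ighv5, opposite in sign to the value as reported. With the 6 leading segments removed from all nodes it was -8.02 for Ighv1 and 0.80 for Ighv5. Both removals act on segments picked for being highest in these nodes, which moves the families by construction. Leaving out 1 node at a time, the Ighv1 difference ranged from -18.3 to -12.1 points and the Ighv5 difference from 8.27 to 13.1 points. The cause of the other shifts was not tested. With Foxp3ΔJag1 node 2 as the sole node of its group, where the spread comes from the controls alone, 0 members and 5 genes were called, which says little about the members. Depth limits the tumours, and the filter on low counts left 18 segments untested, some of them with high counts in 1 or 2 nodes.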
